A study of Homo sapiens with 101 samples.

Results

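Curcumin and tert-butylhydroquinone (tBHQ) are phenols that were each given to HT1080 cells, and the gene expression change after one was set against the change after the other. Curcumin, the yellow pigment of turmeric, joins methoxyphenol rings by an unsaturated β-diketone linker. tBHQ is a synthetic antioxidant with a single hydroquinone ring that carries a tert-butyl group. The members were chosen by their sample titles: 6 arrays of curcumin at 10 µM, 6 of the DMSO control named for it, 6 of tBHQ at 200 µM and 6 of the control named DMSO pooled, which makes 24 arrays and 4 of the 17 groups of the series. Every cell culture, the controls included, received 0.1% DMSO. HT1080 is an established human fibrosarcoma line. The labels give no exposure time and do not say what was pooled in the tBHQ control. They do not say either whether the arrays of a group came from separate cultures, so a p-value here measures the spread between these samples, which may be technical. By the series' design each compound was used at 1 dose, picked for a comparable rise of about 1.5 fold in total p53 protein. The doses therefore differ in molar terms, and compound and dose cannot be told apart in anything that follows: the values stand side by side, and a difference between them is one between 2 treatments as given.

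Both compounds are known as activators of the NRF2 pathway. In resting cells KEAP1 holds the transcription factor NRF2 (gene NFE2L2) and sends it for degradation. Electrophiles and oxidants, including the quinones that phenols can form, modify cysteines of KEAP1, after which NRF2 builds up, pairs with small MAF proteins and binds antioxidant response elements next to genes for glutathione synthesis, thioredoxin, NADPH supply, quinone reduction and heme breakdown.

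Messenger RNA was measured on Affymetrix arrays, and the deposited values are log2 probe set intensities. Calls required a fold change of at least 1.5 and an adjusted p under 0.05 (limma, with Benjamini-Hochberg adjustment over the 11496 genes tested). Without the fold minimum, 588 genes passed that adjusted p after curcumin and 3672 after tBHQ. Counts of list members at an unadjusted p under 0.05 have no share of all tested genes beside them. Whether they hold an excess was therefore not tested. Changes are given as log2 differences ± standard error, with 6 arrays a group. A group whose mean was under a log2 value of 4 was taken as not well above background, and a fold against it is given as a lower bound with that group set to 4. The upper quartile of the arrays was 5.69 to 5.89 in the curcumin set, except for 5.44 in control replicate 5, and 6.19 to 6.24 in the tBHQ set, so the sets look normalized apart. Only differences within a set were therefore compared across sets. Replicate 5 of curcumin and of its control correlated least with their groups (mean r of 0.979 each), as did replicate 1 of tBHQ (0.982) and of DMSO pooled (0.985). All 6 mesenchymal markers lay above the background level, with array means from 10.24 to 10.87. The defining markers of leukocytes, endothelium and hepatocytes, 3 measured for each, were all under it, as were 4 of 5 epithelial markers (KRT7 was the exception).

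Far more genes were called after tBHQ than after curcumin. tBHQ changed 1130 of the genes tested (9.83%), 620 higher (5.39%) and 510 lower (4.44%). Curcumin changed 253 (2.20%), 146 higher (1.27%) and 107 lower (0.931%). The curcumin count depended on single arrays: it was 587 without curcumin replicate 5, 155 without curcumin replicate 3 and 168 without control replicate 4, and 466 (210 higher, 256 lower) without replicate 5 of both groups. With the replicate number as a block it was 448, 247 higher and 201 lower, and the tBHQ count was then 1194. Of the curcumin calls 57.7% were higher as reported, 43.5% after quantile normalization of the 24 arrays together and 45.1% without the replicate 5 pair.

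The difference of the differences, the curcumin change minus the tBHQ change, was tested in 1 fit of the 24 arrays, for this 1 pair of compounds. It was called for 804 genes (6.99%), 391 with the curcumin change above the tBHQ change (3.40%) and 413 with it below (3.59%). This fit left out the pairing of the arrays by replicate number. With the replicate block the difference was called for 1201 genes, 626 above and 575 below, so the more frequent direction depended on it. A gene is described as shared where both compounds were called with 1 sign. It is given to 1 compound where that compound alone was called and the difference was called in the direction of that change. There were 96 shared genes (0.835% of those tested), 61 higher and 35 lower, which is 37.9% of the curcumin calls and 8.50% of the tBHQ calls. Another 6 genes (0.0522%) were called with opposite signs. Curcumin alone had 46 genes, 28 higher and 18 lower, and tBHQ alone had 485, 264 higher and 221 lower. The remaining calls could not be given to either side: 105 curcumin calls and 543 tBHQ calls had no called difference. Of those undecided tBHQ calls, 284 of 295 higher genes and 228 of 248 lower genes had the same sign after curcumin. Among genes called in no comparison 60.6% had the same sign. Genes are in the undecided class because the difference was not called, which itself favours 1 sign. These counts are therefore no evidence that the genes are shared. With the replicate block the counts were 155 shared, 24 opposite, 130 for curcumin alone and 617 for tBHQ alone. Without curcumin replicate 5 they were 156 shared, 24 opposite and 142 for curcumin alone, and without curcumin replicate 3 curcumin alone had 30. The count for tBHQ alone was 428 to 616 with any 1 of the 24 arrays left out.

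**Figure D1:**
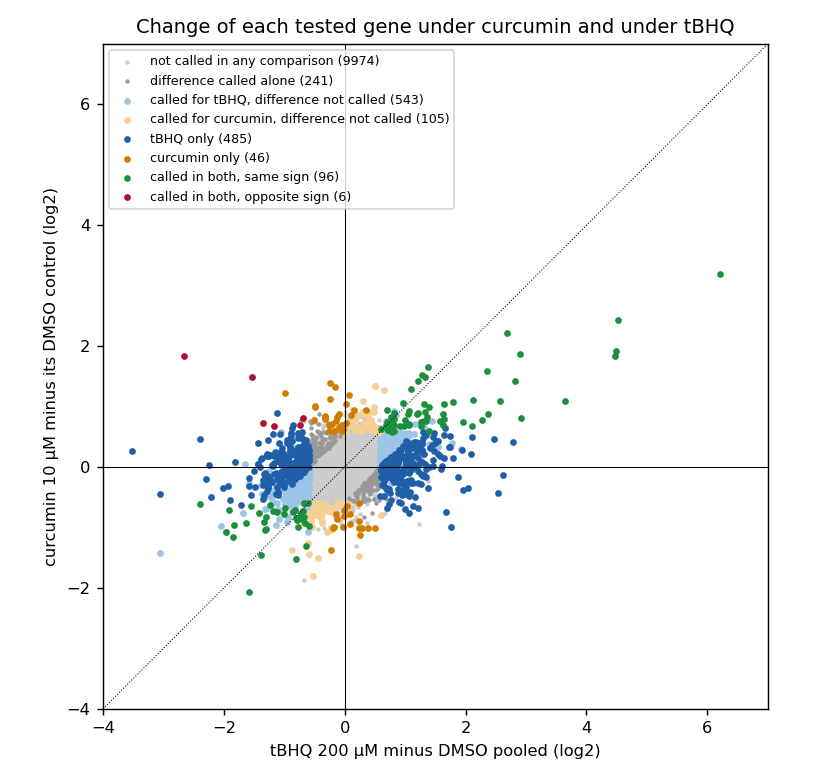
Log2 change of each of the 11496 tested genes after tBHQ (x axis) and after curcumin (y axis), each against its own DMSO control, coloured by class with the number of genes in brackets. The dotted diagonal marks equal change; the 96 shared genes (green) lie mostly on the tBHQ side of it, and the 485 genes of tBHQ alone (dark blue) lie along the horizontal axis.

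Among the shared genes the tBHQ change was usually the larger. It was larger in 70 of 96, and the median change of the 61 shared higher genes was 0.83 after curcumin and 1.31 after tBHQ. For the 35 shared lower genes the medians were -0.84 and -1.0. The difference was called in 26 of the 96, 20 higher and 6 lower genes, and in all 26 the tBHQ change was the larger. For the other 70 the difference was not called, which does not show that the compounds act alike on them. In 50 of the 96 every treated array lay beyond every control array under both compounds. Over all tested genes the groups did not overlap for 2.50% higher and 1.36% lower after curcumin, and for 9.39% higher and 6.92% lower after tBHQ. The log2 changes correlated across all tested genes with Pearson's r = 0.36, and across the 1281 genes called for either compound with r = 0.49. Genes are not independent replicates, and these values are descriptions only.

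The genes of the NRF2 pathway were, among the lists described, the group with the largest share raised under both compounds. Of 42 tested genes of the NRF2 list, curcumin raised 16 and tBHQ raised 31, and neither lowered any. Over all tested genes the shares called higher were 1.27% and 5.39%. All 16 genes raised by curcumin were also raised by tBHQ. The median log2 change of the list was 0.42 after curcumin and 0.98 after tBHQ, beside 0.042 and 0.015 over all genes. The difference was called in 16 of the 42, each time with the tBHQ change larger, beside 3.59% of all tested genes with the curcumin change below. Leaving out any 1 array gave 14 to 16 genes for curcumin and 29 to 31 for tBHQ. With the mean of all probe sets of a gene in place of the brightest, curcumin raised 11 and tBHQ 28: among the genes described here, GCLC, GCLM, TXNRD1 and SQSTM1 then lost the curcumin call, PGD and IDH1 the tBHQ call, and PGD, IDH1, ME1 and SLC7A11 the called difference. The list was drawn up with earlier results of these arrays known, so its direction is not independent evidence.

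**Figure D2:**
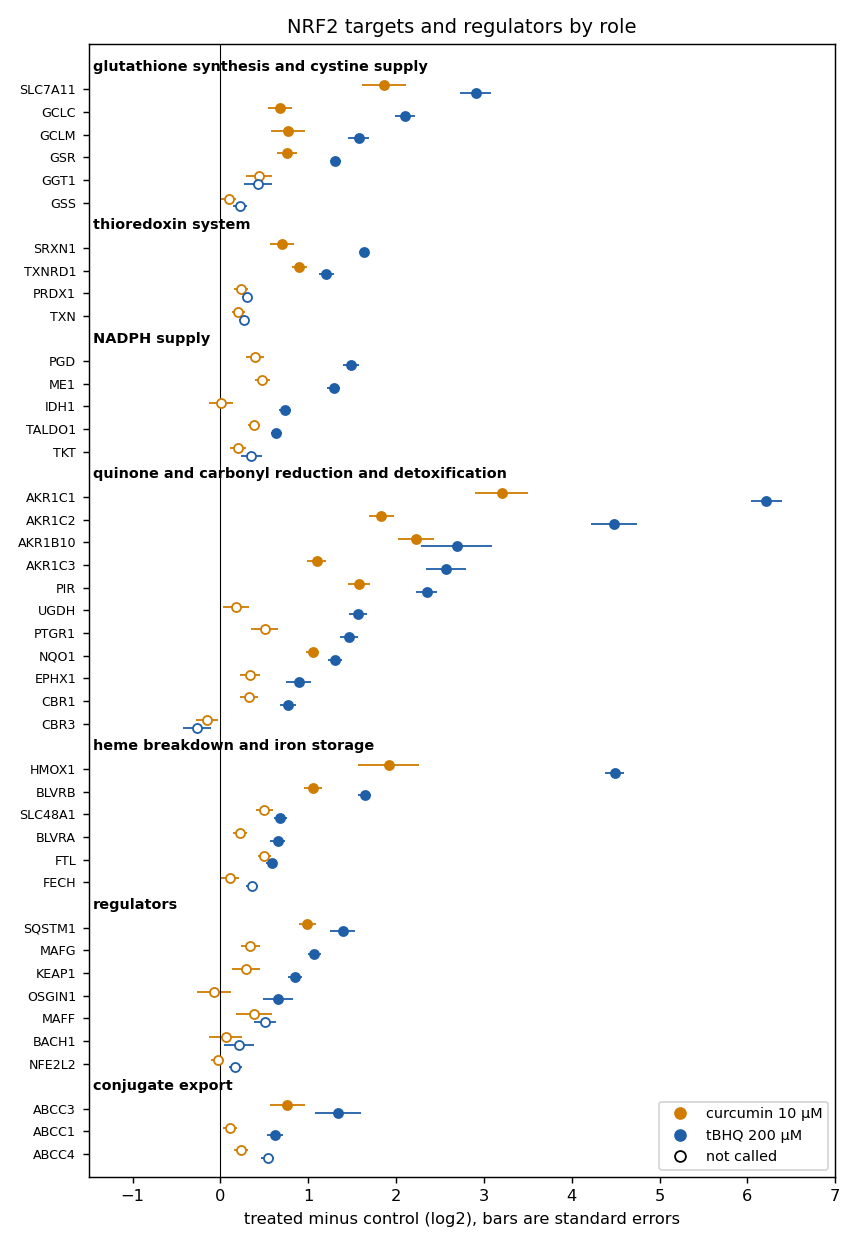
Log2 change of the 42 tested NRF2 list genes after curcumin (orange) and tBHQ (blue), grouped by role, with standard errors. Filled points were called and open points were not. The aldo-keto reductases AKR1C1 and AKR1C2 and HMOX1 lie farthest to the right, and of the 5 NADPH genes 4 are filled for tBHQ and none for curcumin.

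Among the aldo-keto reductases, which reduce aldehydes and ketones, AKR1C1 had the highest rise of any tested gene under both compounds. AKR1C1 ranged from 5.07 to 7.08 in the curcumin controls (median 5.22) and from 8.25 to 9.06 with curcumin (median 8.78). In the tBHQ set it ranged from 4.92 to 5.45 in the controls (median 5.17) and from 10.60 to 11.85 with tBHQ (median 11.43). Every treated array lay above every control array in both sets, and 1 curcumin control array was high. AKR1C1 thus rose by 3.20 ± 0.30 after curcumin, 9.20-fold (adjusted p = 6.7e-05), and by 6.22 ± 0.18 after tBHQ, 74.3-fold (adjusted p = 1.1e-10). The difference was -3.01, with a 95% interval from -3.78 to -2.25 (adjusted p = 9e-06). AKR1C2, whose sequence is nearly identical so that probes may not tell the pair apart, rose by 1.83 ± 0.15 and by 4.48 ± 0.27. AKR1C3 rose by 1.10 ± 0.11 and by 2.57 ± 0.23. For both the difference was called, at -2.65 and -1.47. AKR1B10, a reductase of retinal and lipid aldehydes, rose by 2.22 ± 0.20 after curcumin, at least 4.05-fold with its control under the background level, and by 2.69 ± 0.41 after tBHQ. Its difference of -0.46 did not pass the test, with an interval from -1.46 to 0.53. In DMSO pooled 1 array, replicate 2, was high for AKR1B10, at 6.67 beside 3.68 to 4.40. Over the other settings the tBHQ rise was 2.51 to 3.11 and the difference -0.89 to -0.29, which was never called (lowest adjusted p of limma 0.056).

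NQO1, the quinone reductase that is the textbook readout of NRF2 and of tBHQ, rose under both. Its control arrays lay between 9.69 and 9.88 (median 9.83) beside curcumin arrays between 10.67 and 11.01 (median 10.89). In the tBHQ set the controls lay between 9.58 and 9.97 (median 9.80) and the treated arrays between 10.86 and 11.22 (median 11.12). The treated and control ranges did not overlap in either set. The rise was 1.05 ± 0.08 after curcumin (2.07-fold) and 1.31 ± 0.08 after tBHQ (2.48-fold), and the difference of -0.26 (95% interval -0.48 to -0.04) did not pass the test at an adjusted p of 0.12. PIR, pirin, an iron-binding nuclear protein, rose by 1.58 ± 0.13 and 2.35 ± 0.12, with a called difference of -0.77 (adjusted p = 0.0061). Other detoxification genes passed the test after tBHQ alone: UGDH, which makes UDP-glucuronic acid, was 0.17 ± 0.15 after curcumin and rose by 1.57 ± 0.10 after tBHQ, and PTGR1, a prostaglandin and aldehyde reductase, was 0.50 ± 0.15 and rose by 1.46 ± 0.10. Their differences were called, at -1.39 and -0.96.

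Heme breakdown showed one of the widest gaps. HMOX1, heme oxygenase, ranged from 5.75 to 7.08 in the curcumin controls (median 6.64) and from 7.31 to 9.61 with curcumin (median 8.57). It ranged from 6.75 to 7.36 in DMSO pooled (median 7.19) and from 11.41 to 11.95 with tBHQ (median 11.62). The groups did not overlap in either set, and the curcumin arrays were spread more widely than the tBHQ arrays. HMOX1 rose by 1.91 ± 0.35 after curcumin (3.77-fold, adjusted p = 0.008) and by 4.49 ± 0.11 after tBHQ (22.5-fold, adjusted p = 1.5e-11), a difference of -2.58 (95% interval -3.37 to -1.78, adjusted p = 9.2e-05). BLVRB, a biliverdin reductase that acts after heme oxygenase, rose by 1.05 ± 0.10 and 1.64 ± 0.07. At the other end of the heme pathway ALAS1, the rate-limiting enzyme of heme synthesis, rose under both by amounts that were not told apart, although it is no member of the list. It ranged from 7.73 to 8.62 with curcumin (median 8.22) against 6.45 to 7.16 in its controls (median 6.71), and from 7.93 to 8.70 with tBHQ (median 8.15) against 6.90 to 7.18 (median 7.08). The rises were 1.42 ± 0.17 and 1.21 ± 0.13, and the interval of the difference ran from -0.24 to 0.66.

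For glutathione, SLC7A11, the cystine importer, rose most. Its arrays ranged from 7.06 to 8.70 (median 8.06) in the curcumin controls and from 9.42 to 10.36 (median 9.80) with curcumin. In the tBHQ set they ranged from 7.63 to 8.70 (median 8.26) and from 10.85 to 11.27 (median 11.08). Again no treated array reached down to a control array. The rise was 1.87 ± 0.25 after curcumin and 2.90 ± 0.18 after tBHQ. The difference of -1.04 passed at an adjusted p of 0.038 but did not pass, at 0.052 to 0.071, without any 1 of 12 arrays: curcumin replicates 1, 2 and 6, curcumin control replicates 3, 4 and 6, tBHQ replicates 2, 3 and 4, and DMSO pooled replicates 1, 2 and 3. GCLC, the catalytic subunit of the rate-limiting enzyme of glutathione synthesis, rose by 0.68 ± 0.13 and 2.10 ± 0.11, with a difference of -1.42 (adjusted p = 1.2e-05). Its curcumin call was lost without the replicate 5 pair, when the change was under the fold minimum. GCLM, the modifier subunit, rose by 0.77 ± 0.19 and 1.57 ± 0.12. Its curcumin call was lost, at adjusted p from 0.058 to 0.084, without any 1 of curcumin replicates 1, 2, 3, 4 and 6 or control replicates 1, 4 and 6. GSR, which regenerates reduced glutathione, rose by 0.75 ± 0.11 and 1.31 ± 0.06.

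In the thioredoxin system TXNRD1, thioredoxin reductase, rose by 0.90 ± 0.08 after curcumin and 1.21 ± 0.08 after tBHQ, and the difference of -0.31 (95% interval -0.55 to -0.07) did not pass the test at an adjusted p of 0.078. SRXN1, sulfiredoxin, which repairs oxidized peroxiredoxins, rose by 0.70 ± 0.14 and 1.63 ± 0.06, with a called difference of -0.93. Of 5 tested enzymes that supply NADPH, 4 were called higher after tBHQ and none after curcumin. PGD, ME1 and TALDO1 passed the adjusted p after curcumin and missed only the fold minimum. PGD of the pentose phosphate pathway was 0.39 ± 0.10 after curcumin and rose by 1.49 ± 0.09 after tBHQ. ME1, malic enzyme, was 0.48 ± 0.09 and rose by 1.29 ± 0.07, and IDH1, isocitrate dehydrogenase, was 0.00 ± 0.14 and rose by 0.74 ± 0.07. For these 3 genes the difference was called, at -1.09, -0.81 and -0.73. TALDO1, transaldolase, rose by 0.64 ± 0.06 after tBHQ and was 0.38 ± 0.07 after curcumin, under the fold minimum at an adjusted p of 0.0059.

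Among the regulators, the mRNA of NRF2 itself, NFE2L2, was -0.03 ± 0.07 after curcumin and 0.17 ± 0.08 after tBHQ, and neither passed the test. SQSTM1, the autophagy receptor p62 that binds KEAP1, rose under both, by 0.99 ± 0.10 and 1.39 ± 0.14, and its difference of -0.40 did not pass. MAFG, a small MAF partner, rose by 1.07 ± 0.07 after tBHQ and was 0.34 ± 0.11 after curcumin, with a called difference of -0.73. KEAP1 rose by 0.85 ± 0.08 after tBHQ and was 0.30 ± 0.16 after curcumin, and its difference of -0.55 was under the fold minimum, but was called without any 1 of curcumin replicate 3, control replicates 4 and 5 and DMSO pooled replicate 3. BACH1, the repressor that competes with NRF2, was 0.06 ± 0.19 and 0.21 ± 0.17 and was not called.

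Sequence next to the starts of the shared genes was searched for the core of the antioxidant response element, TGACNNNGC on both strands, from 250 bases before to 50 bases after the start (RefSeq, GRCh38.p14). The core was present in 14 of the 48 shared higher genes that had a promoter entry (29.2%), in 5 of 20 higher genes of curcumin alone (25%), in 29 of 220 higher genes of tBHQ alone (13.2%), in 4 of 24 shared lower genes (16.7%) and in 15.2% of the promoters of all tested genes. A match describes letters in this window and is not a site, and no match says nothing of elements farther away. Shown is 1 match each, with its flanks wholly before the start, for 4 glutathione, thioredoxin and amino acid stress genes described here, GCLM at chr1:93909440-93909480 (+ strand), TXNRD1 at chr12:104215664-104215704 (+ strand), SLC3A2 at chr11:62881646-62881686 (+ strand) and PPP1R15A at chr19:48872253-48872293 (+ strand), read 5′ to 3′ with the core in capitals.
GCLM: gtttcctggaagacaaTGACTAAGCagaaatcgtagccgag
TXNRD1: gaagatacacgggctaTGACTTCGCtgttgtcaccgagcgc
SLC3A2: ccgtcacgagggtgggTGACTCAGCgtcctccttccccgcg
PPP1R15A: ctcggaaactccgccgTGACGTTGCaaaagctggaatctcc
The centres of these matches lie 30, 95, 33 and 148 bases before the starts of the respective genes. In GCLM the core runs opposite to the gene. PPP1R15A has a further match 175 bases before its start, on the opposite strand (chr19:48872226-48872266), and TXNRD1 one whose centre lies 4 bases before its start, also opposite to the gene. The 4 genes were taken from those raised by both compounds. Of the shared higher genes with a match only GCLM, TXNRD1 and PIR are on the NRF2 list. AKR1C1, AKR1C2, AKR1B10, HMOX1, NQO1, SLC7A11, GCLC, SRXN1 and GSR had no match in the window or no promoter entry. Over the tested NRF2 list the core was present in 9 of 33 promoters (27.3%).

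Outside the NRF2 list other shared higher genes were SPP1, osteopontin, which rose by 1.42 ± 0.17 and 2.81 ± 0.23 (difference -1.40, adjusted p = 0.0032), and HDAC9, a class II histone deacetylase, at 1.52 ± 0.27 and 1.27 ± 0.23. The pseudogene NMRAL2P rose at least 4.05-fold after curcumin and at least 19.96-fold after tBHQ, with both control groups under the background level. HDAC9 was called with its brightest probe set and not with the mean of its probe sets.

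Shared lower genes were fewer than shared higher genes, by a margin that depended on the setting. They were 47 beside 50 after quantile normalization, 69 beside 70 without the replicate 5 pair and 71 beside 84 with the replicate block. LRRC17, a secreted leucine-rich repeat protein, had the largest curcumin fall of any tested gene by the brightest probe sets. It ranged from 6.93 to 7.75 in the curcumin controls (median 7.02) and from 4.46 to 5.66 with curcumin (median 5.25), and from 8.51 to 9.26 in DMSO pooled (median 8.62) and from 6.78 to 7.76 with tBHQ (median 7.02). The ranges did not overlap within either set. LRRC17 fell by 2.06 ± 0.20 after curcumin and by 1.58 ± 0.18 after tBHQ, and the interval of the difference ran from -1.06 to 0.09. MAP2K6, the kinase that activates p38, fell by 1.46 ± 0.18 after curcumin and by 1.38 ± 0.17 after tBHQ, where its treated mean was under the background level, so that the tBHQ fall was at least 2.51-fold. MCM7, a subunit of the replicative helicase, fell by 0.85 ± 0.11 and 0.80 ± 0.09. HHIP, the decoy receptor for hedgehog ligands, fell by 0.93 ± 0.12 and 1.63 ± 0.10, with a called difference of 0.71 (adjusted p = 0.0052). CADPS2, a vesicle priming protein, fell by 0.99 ± 0.16 and 0.77 ± 0.10.

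**Figure D3:**
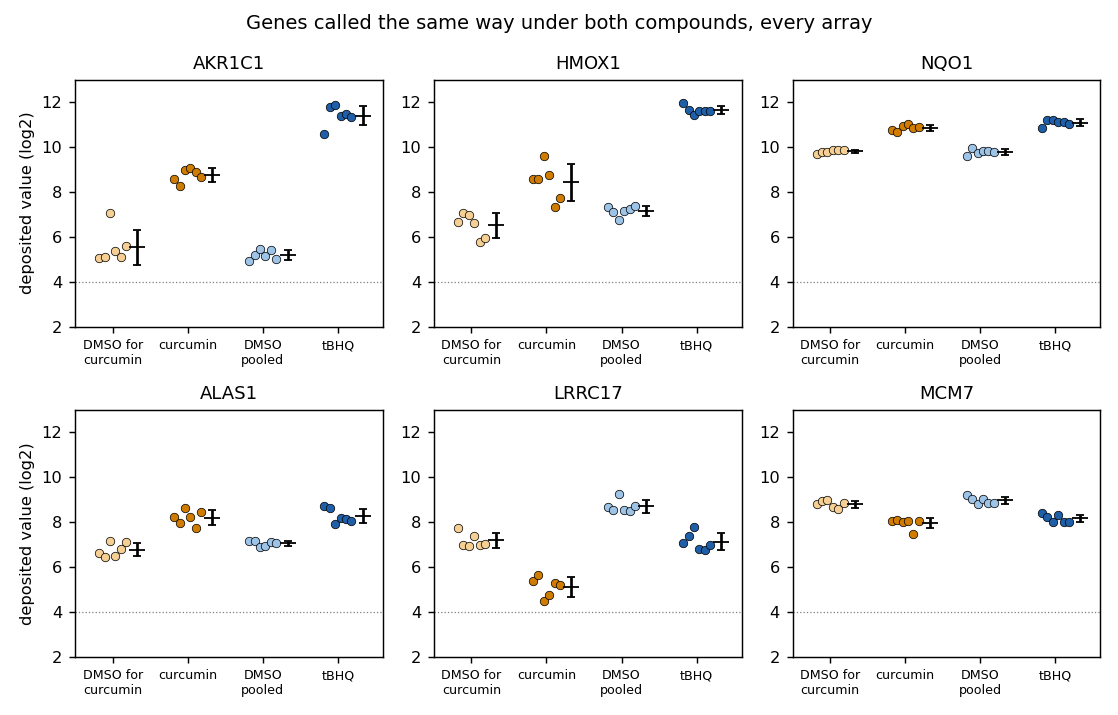
Deposited log2 value of every array for 6 shared genes in the DMSO control for curcumin, curcumin 10 µM, DMSO pooled and tBHQ 200 µM; bars give mean and SD, and the dotted line is the background level of 4. AKR1C1 and HMOX1 climb much farther with tBHQ than with curcumin, while for NQO1, ALAS1, LRRC17 and MCM7 the difference between the compounds did not pass the test.

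The 6 genes of opposite sign made up the smallest class, and in each curcumin raised the gene and tBHQ lowered it: KRTAP2-3, ANKRD1, IL7R, TUFT1, MOCS2-DT and AMOTL2. That single direction depended on the setting. With the replicate block curcumin raised 12 genes of this class and lowered 12. Without the replicate 5 pair it raised 11 and lowered 10, and without curcumin replicate 5 alone 15 and 9. The curcumin call of TUFT1 was lost, at adjusted p from 0.054 to 0.084, without any 1 of curcumin replicates 1 to 4 or control replicates 1, 4, 5 and 6. KRTAP2-3, a hair keratin-associated protein, ranged from 5.14 to 6.32 in the curcumin controls (median 5.82) and from 6.05 to 8.45 with curcumin (median 7.96). In DMSO pooled it ranged from 5.82 to 8.10 (median 7.32) and with tBHQ from 3.74 to 5.73 (median 4.46). The curcumin ranges overlapped and the tBHQ ranges did not. It rose by 1.83 ± 0.37 and fell by 2.66 ± 0.37, a difference of 4.49 (95% interval 3.34 to 5.65, adjusted p = 1.1e-05). ANKRD1, a muscle ankyrin repeat protein known as a target of the YAP coactivator, ranged from 5.08 to 6.06 in the curcumin controls (median 5.65) and from 6.39 to 7.88 with curcumin (median 7.13). It ranged from 7.20 to 8.34 in DMSO pooled (median 7.64) and from 5.32 to 7.33 with tBHQ (median 6.13), where 1 treated array reached into the control range. ANKRD1 rose by 1.50 ± 0.22 and fell by 1.53 ± 0.30, a difference of 3.03 (adjusted p = 1.6e-05). AMOTL2, an angiomotin family member that binds YAP, rose by 0.70 ± 0.12 and fell by 0.74 ± 0.10. IL7R, the interleukin 7 receptor chain, rose by 0.73 ± 0.13 and fell by 1.35 ± 0.20, and its curcumin call was lost with the mean of its probe sets. CCN1, a matricellular protein, fell by 1.18 ± 0.14 after tBHQ and was 0.55 ± 0.09 after curcumin, under the fold minimum but called without control replicate 5. Its difference was 1.73 (adjusted p = 6.1e-07).

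Among the higher genes of curcumin alone, ELAPOR1 and PTPRR had the largest differences of those named by the rule. ELAPOR1, an endosome and lysosome associated protein, rose by 1.40 ± 0.21 and was -0.24 ± 0.22 after tBHQ (difference 1.64, adjusted p = 0.0014). PTPRR, a tyrosine phosphatase that acts on ERK, ranged from 5.32 to 6.23 in the curcumin controls (median 5.66) and from 6.80 to 7.44 with curcumin (median 6.97). With tBHQ it ranged from 5.75 to 7.38 (median 6.34) around DMSO pooled at 6.28 to 6.75 (median 6.52). Only the curcumin ranges were apart. PTPRR rose by 1.32 ± 0.17 after curcumin and was -0.17 ± 0.23 after tBHQ, a difference of 1.49 (adjusted p = 0.0018). TENM4, a teneurin of cell adhesion, ranged from 6.10 to 6.39 in the curcumin controls (median 6.25) and from 4.81 to 5.76 with curcumin (median 5.14), and from 6.63 to 7.20 (median 7.03) and 6.82 to 7.40 (median 7.28) in the tBHQ set. It fell by 1.02 ± 0.16 after curcumin and was 0.24 ± 0.11 after tBHQ (difference -1.25, adjusted p = 0.00023). AIM2, a sensor of cytosolic DNA, fell by 0.89 ± 0.14 after curcumin and was 0.23 ± 0.22 after tBHQ. SMIM3, a small membrane protein, fell by 0.94 ± 0.17 and was 0.09 ± 0.15.

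The higher genes of tBHQ alone included inflammatory mediators. Of 17 tested members of the NF-kB and inflammatory list, tBHQ raised 7 and lowered 1, and curcumin raised 2. Over all tested genes tBHQ raised 5.39% and lowered 4.44%, and curcumin raised 1.27%. The list's median was 0.18 after curcumin and 0.50 after tBHQ, and 0.001 and 0.32 with group means under 4 set to 4. The difference was called for 4 members, all larger after tBHQ, and for 7 with the replicate block. Over all tested genes it was called with the curcumin change below in 3.59%. CXCL8, interleukin 8, ranged from 8.15 to 9.39 in DMSO pooled (median 8.68) and from 9.71 to 10.52 with tBHQ (median 10.10). In the curcumin set it ranged from 7.66 to 8.91 (median 8.76) in the controls and from 7.68 to 8.72 (median 8.17) with curcumin. The tBHQ arrays stood clear of their controls and the curcumin arrays lay within theirs. CXCL8 rose by 1.39 ± 0.20 after tBHQ and was -0.34 ± 0.25 after curcumin, a difference of -1.73 (adjusted p = 0.0014). CXCL3, a related neutrophil chemokine, rose by 2.46 ± 0.20 and was 0.46 ± 0.15 after curcumin. IL6 rose by 1.79 ± 0.25 after tBHQ and lay under the background level in both curcumin set groups. PTGS2, the inducible cyclooxygenase, rose by 1.76 ± 0.33 after tBHQ and was -0.99 ± 0.37 after curcumin (adjusted p = 0.12, and 0.023 with the replicate block, which makes it a gene of opposite sign). SOD2, the mitochondrial superoxide dismutase, was raised by both, by 0.69 ± 0.15 and 1.07 ± 0.15. Its curcumin change was under the fold minimum without the replicate 5 pair or with the mean of its probe sets. Without control replicate 5 alone, curcumin raised 1 member of the list.

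BMP2, a bone morphogenetic protein, was another gene of tBHQ alone. It ranged from 4.15 to 4.76 in DMSO pooled (median 4.61) and from 6.84 to 7.70 with tBHQ (median 7.28), and from 3.82 to 5.54 (median 4.78) and 4.67 to 5.57 (median 5.14) in the curcumin set. Its rise was 2.78 ± 0.16 after tBHQ and the curcumin change was 0.41 ± 0.26 (difference -2.37, adjusted p = 3.2e-05). ATP6V0D2, a subunit of the proton pump of lysosomes, rose by 2.61 ± 0.25 and was -0.14 ± 0.21. LURAP1L rose by 2.05 ± 0.18 and was -0.34 ± 0.17, and FLRT2, a membrane adhesion protein, rose by 1.87 ± 0.19 and was -0.16 ± 0.27. GJA1, connexin 43, rose by 2.54 ± 0.19 after tBHQ and lay under the background level in both curcumin set groups.

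Lower genes of tBHQ alone included FLG and KRT80, both known from the epidermis. FLG, filaggrin, ranged from 6.35 to 7.29 in DMSO pooled (median 6.63) and from 2.78 to 3.93 with tBHQ (median 3.15), and from 4.91 to 6.05 (median 5.46) and 4.82 to 6.61 (median 5.95) in the curcumin set. It fell at least 6.74-fold after tBHQ (adjusted p = 9.6e-08) and was 0.26 ± 0.31 after curcumin. KRT80, a keratin, fell by 2.40 ± 0.23 and was 0.46 ± 0.18, a difference of 2.86, and its curcumin change was called without curcumin replicate 5. PTPRB, a receptor phosphatase, fell at least 3.88-fold, and SYNPO, synaptopodin, which binds actin, fell by 1.44 ± 0.17. THBS1, thrombospondin, ranged from 10.51 to 11.19 in DMSO pooled (median 10.83) and from 8.46 to 9.50 with tBHQ (median 8.85). In the curcumin set its ranges, 9.63 to 10.43 and 9.14 to 10.25, overlapped. THBS1 fell by 2.02 ± 0.17 after tBHQ and was -0.35 ± 0.20 after curcumin (difference 1.67, adjusted p = 0.00033). SLC2A1, the glucose transporter GLUT1, ranged from 8.68 to 9.01 (median 8.84) in DMSO pooled and from 7.72 to 8.03 (median 7.87) with tBHQ. In the curcumin set it stayed between 8.09 and 8.58 in both groups. SLC2A1 fell by 0.98 ± 0.08 after tBHQ and was -0.08 ± 0.09 after curcumin (difference 0.89, adjusted p = 1.2e-05).

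**Figure D4:**
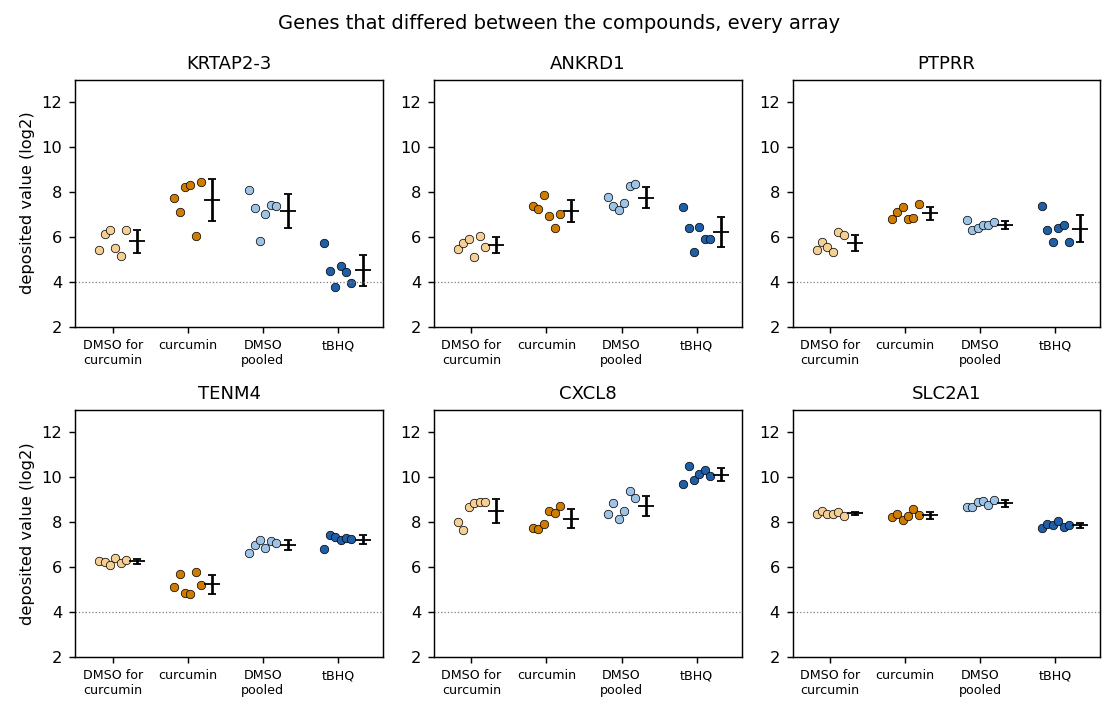
Deposited log2 value of every array for 6 genes with a called difference between the compounds, in the same 4 groups, with mean and SD; the dotted line is the background level of 4. KRTAP2-3 and ANKRD1 move in opposite directions, PTPRR and TENM4 move with curcumin, and CXCL8 and SLC2A1 move with tBHQ.

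The extracellular matrix and TGF-beta list, which holds collagens, proteases and matricellular genes such as THBS1 and CCN1, had 8 of 30 members lowered and 2 raised by tBHQ, and 2 lowered by curcumin, with list medians of -0.15 and -0.09. Over all tested genes tBHQ lowered 4.44% and raised 5.39%, so the count raised is near the background, and curcumin lowered 0.931%. Called differences numbered 5 with the tBHQ change lower and 2 with the curcumin change lower, and the latter count was 0 to 4 with 1 array left out. Over all tested genes the respective shares were 3.40% and 3.59%. PLAU, urokinase, fell by 1.01 ± 0.09 after tBHQ and was -0.26 ± 0.08 after curcumin. TGFBI, a TGF-beta induced matrix protein, fell by 1.25 ± 0.14 and was -0.26 ± 0.14. The curcumin count of this list was 4 without curcumin replicate 5 and 1 without curcumin replicate 3 or 4.

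Some cell cycle genes fell after tBHQ, and few were called after curcumin. Of 31 tested G1/S and replication genes, tBHQ lowered 14 and raised 1, and curcumin lowered 1, MCM7. Over all tested genes tBHQ lowered 4.44% and raised 5.39%, and curcumin lowered 0.931%. The list medians were -0.62 after tBHQ and -0.03 after curcumin. UNG, which removes uracil from DNA, fell by 1.06 ± 0.15 after tBHQ and was 0.05 ± 0.20 after curcumin (difference 1.10, adjusted p = 0.0063). Of 30 G2/M genes tBHQ lowered 10, and none was called after curcumin (12 at an unadjusted p under 0.05), with medians of -0.44 and -0.21. CCNB2, MKI67 and UBE2C passed the adjusted p after curcumin and missed only the fold minimum. CDK1, the mitotic kinase, fell by 0.99 ± 0.11 after tBHQ and was -0.26 ± 0.12 after curcumin, and NUSAP1, a spindle protein, fell by 1.05 ± 0.13 and was -0.20 ± 0.11. MKI67, the proliferation marker Ki-67, fell by 0.78 ± 0.15 after tBHQ and was -0.46 ± 0.10 after curcumin, under the fold minimum, and its difference of 0.32 (95% interval -0.06 to 0.70) did not pass. The difference was called for 6 G1/S genes and 3 G2/M genes, with the tBHQ change lower in each, beside 3.40% of all tested genes in that direction. The G1/S count moved with single arrays: it was 14 without curcumin replicate 5, 3 without any 1 of curcumin replicates 2 and 3, curcumin control replicate 5, tBHQ replicates 3, 5 and 6 and DMSO pooled replicates 1 and 2, and 15 with the replicate block. The count of G1/S genes lowered by tBHQ was 22 without tBHQ replicate 1. In these bulk samples fewer cells of a cycling state and less RNA per cell cannot be told apart.

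Of 28 tested p53 targets, curcumin raised 1 and tBHQ raised 1 and lowered 1, with medians of 0.19 and -0.23. Over all tested genes the shares were 1.27% higher after curcumin and 5.39% higher and 4.44% lower after tBHQ, so these counts are near the background. At an unadjusted p under 0.05 there were 14 members after curcumin and 16 after tBHQ, with no share of all tested genes to set beside them. CDKN1A, the p21 cell cycle inhibitor, was 0.51 ± 0.10 after curcumin (adjusted p = 0.012) and 0.33 ± 0.08 after tBHQ (adjusted p = 0.0087), under the fold minimum both times. MDM2, which targets p53 for degradation, was 0.44 after curcumin and -0.12 after tBHQ. GDF15, a stress cytokine, rose by 0.94 ± 0.19 after tBHQ and was 0.55 ± 0.16 after curcumin, a change that was called without control replicate 5. The difference was called for 6 members, each with the curcumin change higher, such as PLK2, a polo-like kinase. Over all tested genes that direction was called in 3.40%. PLK2 ranged from 10.96 to 11.36 in DMSO pooled (median 11.21) and from 10.05 to 10.32 with tBHQ (median 10.15), and from 10.56 to 11.03 (median 10.84) and 10.35 to 11.04 (median 10.63) in the curcumin set. It fell by 1.02 ± 0.08 after tBHQ and was -0.14 ± 0.12 after curcumin (difference 0.88, adjusted p = 0.00025). POLH, a translesion polymerase, had a called difference of 0.78 from changes of 0.23 ± 0.10 and -0.55 ± 0.12 that were not called themselves, although the tBHQ change was called without tBHQ replicate 1 or DMSO pooled replicate 6. Without curcumin replicate 5, curcumin raised 6 of the list, and without its control's replicate 5 it raised 2. tBHQ lowered 3 without tBHQ replicate 1 or DMSO pooled replicate 6, and 2 without tBHQ replicate 2 or DMSO pooled replicate 4. It raised 2 without any 1 of tBHQ replicates 3 and 5 and DMSO pooled replicate 2.

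Other stress lists had smaller shares of called members than the NRF2 list. Of 32 genes of the integrated stress response, run by the factor ATF4, tBHQ raised 7 and curcumin 4, with medians of 0.34 and 0.21. Over all tested genes tBHQ raised 5.39% and curcumin 1.27%. The difference was called in 3.40% of them with the curcumin change above and in 3.59% with it below. TRIB3, a pseudokinase induced by ATF4, rose by 1.28 ± 0.16 after tBHQ and was 0.29 ± 0.17 after curcumin (difference -0.99, adjusted p = 0.0092). CEBPB, a transcription factor, rose by 1.08 ± 0.17 and was 0.12 ± 0.11. ATF3 went the other way: it rose by 0.88 after curcumin, a call lost without any 1 of 4 arrays, and was -0.09 after tBHQ. Its difference was called, but not, at adjusted p from 0.053 to 0.069, without any 1 of 12 arrays. ASNS, of amino acid synthesis, rose by 1.28 after curcumin, a call lost without any 1 of 8 arrays, and was 0.64 after tBHQ. The list had 2 called differences with the tBHQ change higher and 1 with it lower. PPP1R15A, which restores translation, rose under both, by 0.83 ± 0.14 and 0.77 ± 0.11, and so did SLC3A2, the heavy chain that carries SLC7A11, by 0.83 ± 0.19 and 1.36 ± 0.15. The curcumin call of SLC3A2 was lost, at adjusted p from 0.056 to 0.069, without any 1 of curcumin replicates 1, 3, 4 and 6 or control replicates 1, 2 and 4. The curcumin count of 4 fell to 1 or 2 without any 1 of curcumin replicates 1, 3, 4 and 6 or control replicates 1, 2 and 4, and was 7 higher and 2 lower with the replicate block. Of 21 heat shock proteins tBHQ raised 3, and none was called after curcumin (4 at an unadjusted p under 0.05), with medians of 0.21 and 0.12. HSPA1L, a testis-enriched member, rose by 1.18 ± 0.20 after tBHQ by its brightest probe set, a call lost with the mean of its probe sets, and was 0.22 ± 0.10 after curcumin. The members HSPA1A, DNAJB1 and BAG3 stayed under the fold minimum after both compounds. Of 19 chaperones of the endoplasmic reticulum and 29 proteasome subunits none was called after either compound. Some passed the adjusted p and missed only the fold minimum. These included MANF, CRELD2, PSMB2 and PSMD12 after curcumin, and XBP1 and PSMB5 after tBHQ. The chaperone medians were -0.24 after curcumin, with 1 of 19 above 0, and 0.07 after tBHQ, with 13 above 0, and in 3 of them every curcumin array lay below every control array. The difference was called for 2 chaperone list members, both with the curcumin change lower, and for 1 to 3 with 1 array left out. These were XBP1, the transcription factor of the unfolded protein response (difference -0.72, adjusted p = 0.012), and MANF, a secreted stress factor (-0.59, adjusted p = 0.00058). The difference of MANF was under the fold minimum without any 1 of 12 arrays: curcumin replicates 1, 3 and 5, control replicates 1 to 4, tBHQ replicates 2, 3 and 4, and DMSO pooled replicates 5 and 6. The proteasome medians were 0.20 and 0.12. At an unadjusted p under 0.05 there were 9 of the chaperones after curcumin and 3 after tBHQ, and 13 of the proteasome subunits after each. The share of all tested genes at that threshold was not counted, so these may be near the background. Without curcumin replicate 5 or its control, curcumin lowered 1 of the chaperones, and tBHQ raised 1 without any 1 of tBHQ replicates 1, 2 and 4 and DMSO pooled replicates 5 and 6. AHR, the receptor for dioxin-like ligands, was -0.54 ± 0.13 after curcumin and 0.41 ± 0.11 after tBHQ. Neither reached the fold minimum, except the curcumin change without curcumin replicate 2 or 5, and the difference of -0.95 was called (adjusted p = 0.00075).

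TXNIP, which binds thioredoxin and restrains glucose uptake, had the largest tBHQ fall of its list of 4. It ranged from 9.10 to 11.06 (median 10.58) in DMSO pooled and from 5.47 to 8.51 (median 7.28) with tBHQ, and from 8.19 to 10.45 (median 9.46) and 6.29 to 9.56 (median 7.90) in the curcumin set. The tBHQ ranges were apart and the curcumin ranges overlapped widely. TXNIP fell by 3.05 ± 0.45 after tBHQ (adjusted p = 0.00025) and was -1.42 ± 0.45 after curcumin (adjusted p = 0.08). The curcumin change passed with the replicate block (adjusted p = 0.00093) and without curcumin replicate 5 (0.014) or control replicate 3 (0.049), and the difference of 1.63 passed with the block at 0.002 and without curcumin replicate 3 at 0.049. Interferon-stimulated genes were lowered by tBHQ in 5 of 14 cases and by curcumin in 1, and in none without any 1 of curcumin replicates 1 and 3 and control replicates 1 and 4. Genes of the histone list, which also holds variant and linker histones, were lowered by tBHQ in 4 and by curcumin in 3 of 10 cases. With 1 array left out these counts were 3 to 5 and 2 to 3. Over all tested genes tBHQ lowered 4.44% and curcumin 0.931%.

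**Figure D5:**
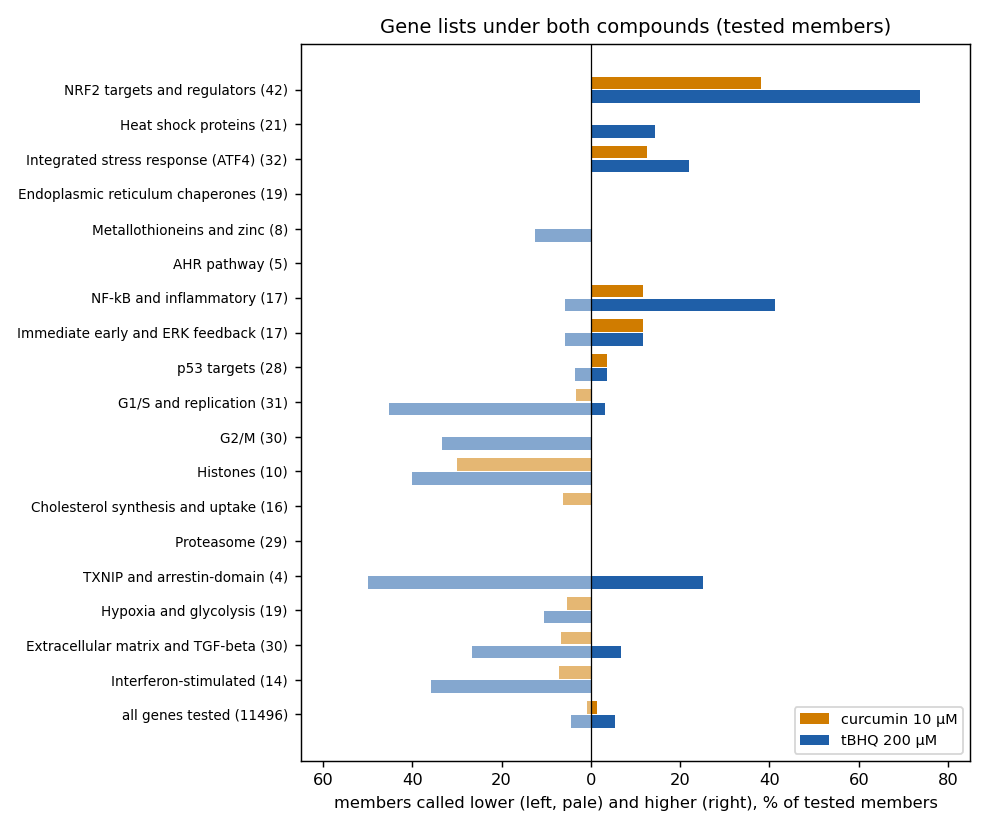
Share of the tested members of each gene list (number in brackets) called higher (right) or lower (left, pale) after curcumin (orange) and tBHQ (blue), with all tested genes in the lowest line. The NRF2 list has the largest share of higher calls under both compounds, and the G1/S and G2/M lists have lower calls mainly after tBHQ.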

How the data were processed

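Expression in HT1080 cells was measured on Affymetrix arrays. The deposited values are log2 intensities per probe set, made by the authors with GCRMA in Partek per the submitters' processing notes (no version or genome build is given in the sources used here). Array controls aside there were 54613 probe sets, of which 40914 carry 1 gene in the platform annotation, 864 several and 12835 none, and only the first kind was used. Each of 19774 genes was represented by its brightest probe set over all arrays of the series, and the 11496 genes with at least 1 of 17 group means at a log2 value of 4 or more were tested. The deposited values were used without renormalization. The number of arrays limits the precision.

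Changes were fitted with limma 3.58.1 (lmFit, eBayes) in R 4.3.3 (data.table version 1.17.8), the compound comparisons on 12 arrays each by group and the difference of differences on the 24 arrays, with no covariate. Python 3.11.15 with numpy 2.4.6, pandas 2.3.3 and matplotlib 3.10.9 did the rest. Genes were named by a rule: a panel; up to 10 shared genes per direction with the largest smaller change and no overlap of arrays; up to 8 per direction for 1 compound by the difference; all of opposite sign; up to 4 members per list with the largest difference. Some genes that the rule named, panel members among them, are not described here. Further list members were chosen after their values were seen. The compounds, the lists and the rule were chosen with earlier results of these data known. Gene lists have no test.

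Replicate numbers come from the sample titles. Arrays of 1 number deviated together in every treated and control pair (r from 0.292 to 0.684 for curcumin, highest with the own number in 5 of 6, and from 0.435 to 0.771 for tBHQ, in 6 of 6), so the numbers pair the samples. On simulated data with 134 of 11496 genes changed 2-fold, the fit recovered 90.3% for curcumin with 0 false calls, 94.8% for tBHQ with 0, and 79.1% for the difference with 8. The simulated noise was independent for each gene and array and had no pairing by number. These rates therefore check the fit and may not hold for the real arrays. Alternatives covered the filter, probe sets, normalization, samples fitted, variance, fold minimum, replicate block, background level and each array left out. Leaving out the replicate 5 pair or the replicate 1 pair was chosen after seeing the data. Some members of the NRF2 list, such as FTH1 and MAFK, were not analysed here.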

Additional observations from a re-analysis of the deposited data

Results flagged for a closer look

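Within a group of 6 arrays, a value was picked out when its gap to the nearest other array was large for the range of the group (Dixon's test at 95%). This held for 20 of 324 groups of values (6.17%), over 81 of the genes described with values (ATF3 and ASNS were not among them), where chance picks out about 1 in 20. Values are deposited log2 values, followed by the range of the other 5 arrays.

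In DMSO pooled 6 genes had such an array. AKR1B10 in replicate 2 lay at 6.67 beside 3.68 to 4.40. GDF15 in replicate 1 was at 10.59 beside 11.23 to 11.61. LRRC17 in replicate 3 stood at 9.26 beside 8.51 to 8.70. NMRAL2P in replicate 6 lay at 3.68 beside 3.80 to 3.85. SPP1 in replicate 1 was at 5.36 beside 6.21 to 6.71. TALDO1 in replicate 4 stood at 10.73 beside 10.44 to 10.54.

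In the curcumin control 4 genes had such an array. AKR1C1 in replicate 3 lay at 7.08 beside 5.07 to 5.58. AMOTL2 in replicate 2 was at 9.36 beside 8.90 to 9.03. ELAPOR1 in replicate 5 stood at 3.92 beside 4.78 to 5.07. GCLM in replicate 5 lay at 8.57 beside 9.24 to 9.52.

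With tBHQ 6 genes had such an array. AKR1C3 in replicate 1 lay at 8.85 beside 10.06 to 10.40. CDK1 in replicate 1 was at 9.94 beside 9.48 to 9.59. GCLC in replicate 1 stood at 9.59 beside 10.12 to 10.26. LURAP1L in replicate 1 lay at 8.68 beside 9.27 to 9.56. TALDO1 in replicate 4 was at 11.29 beside 11.14 to 11.19. TENM4 in replicate 1 stood at 6.82 beside 7.19 to 7.40.

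With curcumin 4 genes had such an array. KEAP1 in replicate 5 lay at 7.20 beside 7.70 to 7.93. MCM7 in replicate 5 was at 7.49 beside 8.01 to 8.08. TALDO1 in replicate 6 stood at 10.45 beside 10.55 to 10.60. UNG in replicate 5 lay at 7.86 beside 8.58 to 8.70.

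Replicate 5 of the curcumin set accounted for 5 of these values and replicate 1 of the tBHQ set for 7, which are the arrays that correlated least with their groups. Whether this bears on the results was not tested beyond leaving those arrays out.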

How the results depend on the processing

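The curcumin counts depended on the setting more than the tBHQ counts. The 253 curcumin calls became 158 with the mean of all probe sets, 383 in 1 fit of all 17 groups, 588 with no fold minimum, 448 with the replicate block and 466 without the replicate 5 pair, and ranged from 155 to 587 with 1 array left out. The 96 shared genes became 55 with the mean of all probe sets, 309 with no fold minimum and 155 with the replicate block, and ranged from 65 to 156. The 6 genes of opposite sign became 15 in 1 fit of all 17 groups, 11 in 1 fit of the 4 groups, 30 with no fold minimum, 24 with the replicate block and 21 without the replicate 5 pair, and ranged from 5 to 24. The 46 genes of curcumin alone became 100 with no fold minimum, 130 with the replicate block and 97 without the replicate 5 pair, and ranged from 30 to 142. With no fold minimum tBHQ had 3672 calls, the difference 1420 and tBHQ alone 1073. With 1 array left out these ranged from 1092 to 1243, from 698 to 1036 and from 428 to 616. The cause of these moves was not tested, beyond the looser rule and the smaller sample by construction. No value reversed. Besides the counts and the list counts given in the report, the replicate block changed the call of PTGS2, of TXNIP and of ASNS (after tBHQ), and of no other gene described here. With 6 arrays a group the depth of evidence is limited, and values near a log2 of 4 are close to background.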
